A study of Bombus terrestris with 8 samples.

Results

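Among the 65 miRNA entries listed for larvae of the bumblebee Bombus terrestris, 15 carried no miRBase identifier, and 5 of these were chosen because their reads shifted strongly between larval stages. MC1607, MC476 and MC295 were chosen for a rise from early to late larvae, and MC314 and MC732 for a fall. The names are those given in the table of predictions, and nothing further is annotated for these entries. Because the stages were used to pick the 5 miRNAs, their levels by stage are given here as a description, with no test. The libraries were made from whole bodies of diploid female larvae destined to become workers, taken from 4 colonies, with larvae of the same colony and stage pooled. Early larvae were of instars 1 and 2 and late larvae of instar 4, with 4 libraries from each stage, and no other treatment or genotype separates the groups.

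miRNAs are small RNAs cut from the stem of a folded precursor by the nucleases Drosha and Dicer. One strand of the stem is loaded into an Argonaute protein and guides it to messenger RNAs, mainly through the seed, the bases that follow the first base of the mature miRNA. A convincing precursor folds into a single stem and loop, with the mature miRNA lying on one arm and well paired to the other. In insects several miRNAs, of which let-7 is the best known, are switched on towards the end of larval life, when the animal stops growing and prepares for metamorphosis.

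The mature sequences are shown first because the seed defines what a miRNA can pair with. They are written 5′ to 3′ as DNA letters with the seed, bases 2 to 8, in capitals.
MC1607: gTGGATTAtggaaagaaatcg
MC476: tTATTCCGgtgaaccactcttc
MC295: tGTTGCGAggtcgaagggcagt
MC314: aTCAGGTCgctcgatagaggc
MC732: tATTTGTAcatgcgtggttagga
The 5 seeds all differed from each other. No other listed entry shared bases 2 to 8 with any of them, and none shared bases 2 to 7. The longest run of bases that a mature sequence had in common with any other listed mature sequence was 8 nt, between MC295 and bte-mir-980. None of the 5 mature sequences, on either strand, occurred within the precursor of another entry. Reads matching a whole mature sequence exactly could thus not be divided with another listed precursor. MC1607 and MC314 were 21 nt long, a length at or below which only 6 of the 65 entries fell. MC476 and MC295 were 22 nt and MC732 was 23 nt long. MC476, MC295 and MC732 began with T (U in the RNA), as did 42 of the 65 entries, whereas MC1607 began with G and MC314 with A.

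The precursors show where each mature sequence sits in its hairpin. They are written 5′ to 3′ with the mature sequence in capitals.
MC1607: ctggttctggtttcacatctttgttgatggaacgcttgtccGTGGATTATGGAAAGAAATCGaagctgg
MC476: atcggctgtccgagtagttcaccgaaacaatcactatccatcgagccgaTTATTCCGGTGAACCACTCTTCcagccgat
MC295: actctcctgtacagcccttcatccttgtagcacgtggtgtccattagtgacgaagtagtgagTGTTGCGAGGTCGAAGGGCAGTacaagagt
MC314: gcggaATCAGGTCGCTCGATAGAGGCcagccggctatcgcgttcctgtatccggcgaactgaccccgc
MC732: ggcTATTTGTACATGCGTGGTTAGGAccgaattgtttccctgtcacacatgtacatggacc
On assembly Bter_1.0, the MC1607 precursor lay on Group12.2 from 2992588 to 2992656 on the plus strand, and the MC295 precursor on Group3.3 from 727632 to 727723 on the plus strand. The MC314 precursor lay on Group3.6 from 320021 to 320088 on the minus strand. The MC476 precursor lay on Group9.6 from 796137 to 796215 on the minus strand, and the MC732 precursor on Group7.3 from 662445 to 662505 on the plus strand. Whether these positions fall in genes, exons or introns was not analysed here. None of the 5 lay within 10 kb of another listed miRNA. MC1607, MC295 and MC314 were the only entries on their scaffolds. The nearest neighbour of MC476 was bte-mir-11, 95545 nt away on the opposite strand, and that of MC732 was bte-mir-2-1, 452926 nt away on the opposite strand.

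The depth of the libraries set how much could be read from these miRNAs. Early libraries held between 204223 and 502540 reads on listed miRNAs and late libraries between 45649 and 257161, an 11.0-fold range over the 8 libraries, with late replicate 4 the smallest. Levels are therefore given as CPM of listed reads, the count scaled to a common total, with 95% Clopper-Pearson intervals that cover counting error only. A count of 0 allowed up to 3 reads, which is 23.5 CPM in late replicate 3 and 65.7 CPM in late replicate 4, and the two-sided interval of a 0 ended somewhat higher, at 28.9 and 80.8 CPM. In whole larvae, fewer cells that hold a miRNA and less of it in each cell cannot be told apart. The 5 were of middling to low abundance. MC1607 ranked 30 of 63 distinct sequences by total reads, MC295 31, MC732 40, MC314 49 and MC476 55.

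**Figure D1:**
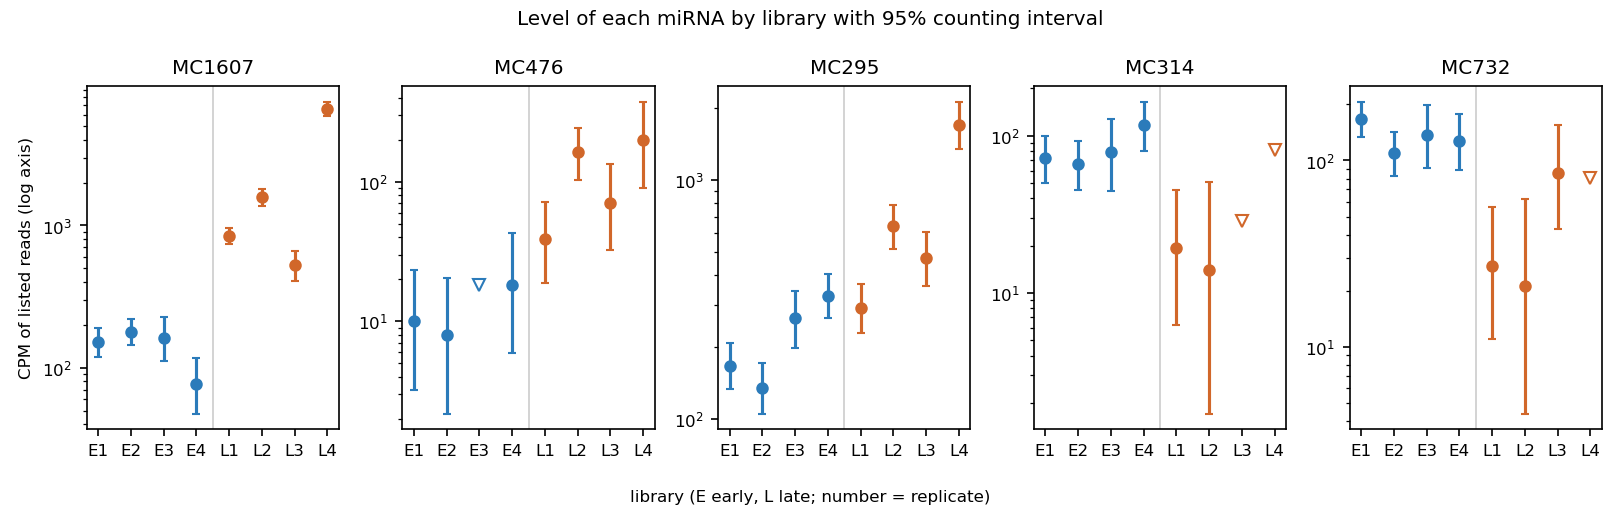
Level of each miRNA in CPM of listed reads (log axis, scaled separately in each panel) in the 4 early (E, blue) and 4 late (L, orange) libraries. Bars are 95% Clopper-Pearson intervals and open triangles mark the upper bound of libraries with 0 reads; the bars of the stages stay apart only for MC1607, with at least 407 CPM in late larvae and at most 227 in early larvae.

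MC1607 had a rise that was the firmest of the 5 against depth, in that its counting intervals alone kept the stages apart. The raw counts of early replicates 1 to 4 were 76, 90, 33 and 21, and those of the late replicates were 217, 224, 67 and 303. In CPM of listed reads this was 151, 179, 162 and 76.6 in early larvae and 844, 1581, 525 and 6638 in late larvae. Every late library was above every early one, and late replicate 4, the shallowest library, stood far above the other late libraries. MC1607 was the 11th most abundant sequence there, with 0.664% of the listed reads, and ranked between 22 and 29 in the other late libraries.
The lowest late interval began at 407 CPM, in late replicate 3, and the highest early interval ended at 227, in early replicate 3, so counting error did not bridge the stages. The mean level was 142 ± 45.2 CPM (SD, n = 4) in early and 2397 ± 2862 (SD, n = 4) in late larvae. The late SD exceeded the late mean, so the size of the rise was poorly fixed although its direction was shared by all libraries. From the summed reads, 220 early and 811 late, the late level was 9.56-fold the early level (counting interval 8.22 to 11.1). The ratio of the mean levels was 16.9, above this interval, which leaves out the spread between libraries. The log2 fold change from edgeR, fitted over all listed sequences with TMM scaling, was 4.16 (standard error 0.63). Without late replicate 4 it was 3.13 (standard error 0.40). This library thus raised the estimate without deciding its direction, and whether its low depth plays a part was not tested. MC1607 had the highest log2 fold change of the 5 in the main fit, but MC476 passed it without late replicate 4 (3.48 against 3.13), without early replicate 4 (4.15 against 4.00) and with the replicate number as a block (3.70 against 3.58).

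MC476 rose from near the detection limit. Early replicates 1 to 4 had 5, 4, 0 and 5 reads, and the late replicates had 10, 23, 9 and 9. In CPM of listed reads this was 9.95, 7.96, 0 and 18.2 in early larvae and 38.9, 162, 70.5 and 197 in late larvae. The stages did not overlap in these levels, and the raw counts were higher in every late library, although 3 of the 4 late libraries were shallower than all early ones. With so few reads the intervals did overlap. The highest early interval, that of early replicate 4, ended at 42.6 CPM.
Summed over libraries, the 14 early and 51 late reads gave a 9.44-fold higher late level (counting interval 5.15 to 18.5). The mean was 9.04 ± 7.49 CPM (SD, n = 4) in early and 117 ± 74.7 (SD, n = 4) in late larvae, and the edgeR log2 fold change was 3.68 (standard error 0.72). It was lowest, 3.06, without early replicate 2. Had every library held as many listed reads as late replicate 4, at most 0.832 reads would have been expected in any early library, so MC476 would hardly have been seen in early larvae at that depth. The intervals of late replicates 2 and 4 began at 103 and 90.2 CPM, above every early interval, whereas those of late replicates 1 and 3 began at 18.6 and 32.2 and did not clear the early libraries.

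MC295 was the least firm of the 3 that rose. Early replicates 1 to 4 had 84, 68, 54 and 90 reads, and the late replicates had 75, 91, 60 and 78. The raw counts thus hardly differed between stages, with 296 early and 304 late reads. They varied 1.69-fold between the lowest and the highest library while the depth varied 11.0-fold, and of the 42 sequences with reads in all 8 libraries no other had so narrow a range. The next narrowest was 4.76-fold, for bte-mir-184, an abundant miRNA conserved among insects.
In CPM of listed reads the early values were 167, 135, 264 and 328 and the late values 292, 642, 470 and 1709. The stages overlapped, because early replicate 4 was above late replicate 1. The rise of MC295 was thus seen only in levels scaled to depth. For MC1607 and MC476 the summed raw counts were higher in late larvae as well. The mean was 224 ± 88.7 CPM (SD, n = 4) in early and 778 ± 637 (SD, n = 4) in late larvae.
From summed reads the late level was 2.66-fold the early level (counting interval 2.26 to 3.13). The ratio of the mean levels was 3.48, above this interval, which leaves out the spread between libraries. The edgeR log2 fold change was 1.87 (standard error 0.52). It was 1.36 without late replicate 4, the library with the highest level, and 1.40 without early replicate 2, the library with the lowest. Counting error was small for MC295, with at least 54 reads in each library. Its CPM was highest in the shallowest library and lowest in the deepest, and the part of depth in this was not tested.

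**Figure D2:**
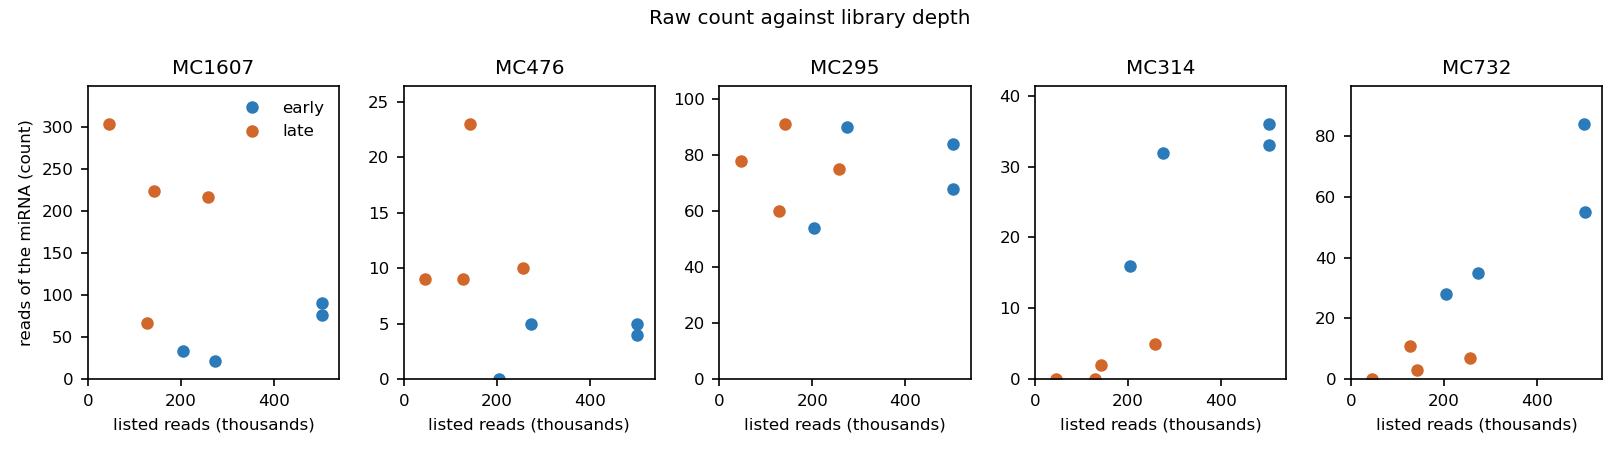
Raw count of each miRNA (y axis, from 0) against the listed reads of the library (x axis, in units of 1000 reads), with early libraries in blue and late in orange. MC295 stayed between 54 and 91 reads at every depth, whereas MC314 and MC732 had at most 5 and 11 reads in late libraries.

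MC314 fell to a few reads in late larvae. The 4 early replicates, in order, had 36, 33, 16 and 32 reads, and the late replicates had 5, 2, 0 and 0. In CPM of listed reads this was 71.7, 65.7, 78.3 and 117 in early larvae and 19.4, 14.1, 0 and 0 in late larvae. The early libraries lay close together, and every late value was lower. How firm this was differed among the late libraries. In late replicate 3 a count of 0 left room for 23.5 CPM, well under the lowest early level. In late replicate 4 it left room for 65.7 CPM by the limit of 3 reads, as much as the level of early replicate 2, and for 80.8 CPM by its interval, which is above early replicates 1 to 3. At that depth the early libraries would have given only 3.00 to 5.33 reads. Even with late replicate 4 set aside, the intervals of the stages met, since that of late replicate 2 ended at 51.0 CPM and that of early replicate 3 began at 44.8.
The mean was 83.1 ± 23.0 CPM (SD, n = 4) in early and 8.39 ± 9.93 (SD, n = 4) in late larvae. From the summed reads, 117 early and 7 late, the early level was 6.45-fold the late level (counting interval 3.03 to 16.4). The edgeR log2 fold change was −2.55 (standard error 0.71), the lowest of the 62 sequences tested. Without late replicate 1, which held 5 of the 7 late reads, it was −3.97, and without late replicate 4 it was −2.35. The fall thus did not depend on the shallowest library, and its size depended on a handful of reads.

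MC732 fell less evenly. The 4 early replicates, in order, had 84, 55, 28 and 35 reads, and the late replicates had 7, 3, 11 and 0. In CPM of listed reads this was 167, 109, 137 and 128 in early larvae and 27.2, 21.2, 86.1 and 0 in late larvae. Late replicate 3 stood out from the other late libraries and came near the early range. On this scale the stages did not overlap, but with TMM scaling the 101 CPM of late replicate 3 passed the 95.6 of early replicate 2. The counting intervals of these libraries overlapped on either scale, from 43.0 to 154 in late replicate 3 and from 82.4 to 142 in early replicate 2 in CPM of listed reads.
For late replicate 4, where no read was found, the early libraries would have given about 5.0 to 7.63 reads at its depth. The mean was 135 ± 24.2 CPM (SD, n = 4) in early and 33.6 ± 36.9 (SD, n = 4) in late larvae. From the summed reads, 202 early and 21 late, the early level was 3.71-fold the late level (counting interval 2.36 to 6.13). The edgeR log2 fold change was −1.57 (standard error 0.62), and it was −2.39 without late replicate 3.

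Libraries of similar depth allowed the stages to be set side by side without any scaling. Late replicate 1, with 257161 listed reads, lay between early replicates 3 and 4, with 204223 and 274222. MC1607 had 217 reads in late replicate 1 against 33 and 21 in the early libraries. MC476 had 10 reads against 0 and 5, and MC295 had 75 reads against 54 and 90. MC314 had 5 reads against 16 and 32, and MC732 had 7 reads against 28 and 35. At similar depth the counts of MC1607, MC476, MC314 and MC732 lay on the side for which they were chosen, and MC295 lay between the early libraries. These are single libraries, given with no test. They are among the libraries used to pick the 5, so the directions here are no separate check.

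In the fit over all listed sequences, 4 of the 5 were among those called at an adjusted p under 0.05 (quasi-likelihood test of edgeR, Benjamini-Hochberg adjusted), where 32.3% of the 62 sequences were called, and MC732 was not. In CPM of listed reads the stages did not overlap for 4 of the 5, against 37.1% of the 62 sequences. These were MC1607 and MC476, higher in late larvae, where the background was 11.3%, and MC314 and MC732, lower in late larvae, where it was 25.8%. Since the 5 were picked on this contrast, nothing is read from these counts. MC1607 had the second highest and MC476 the fourth highest log2 fold change of the 62. MC295 was 9th from the top, and MC732 was 4th from the bottom. The choice had no threshold. Of the entries without an identifier that were not chosen, MC1211 had the highest log2 fold change, 4.00, and MC848 the lowest, −1.09. The precursors of both overlap those of named miRNAs, as given below.
Across 13 alternative fits each of the 5 kept its direction. Over all tested sequences the median log2 fold change was 0.18, and it moved between −0.51 and 0.32 with the fit. Relative to the median of each fit, MC1607 stayed between 2.81 and 4.72, MC476 between 3.17 and 3.99, and MC295 between 1.04 and 2.35. MC314 stayed between −3.46 and −2.31 and MC732 between −2.51 and −1.40. The calls rest on the same contrast that picked the 5 and are given only as a description. That of MC295 was lost without early replicate 2, and MC732, not called in the main fit, was called in 7 of the 13 alternatives.

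**Figure D3:**
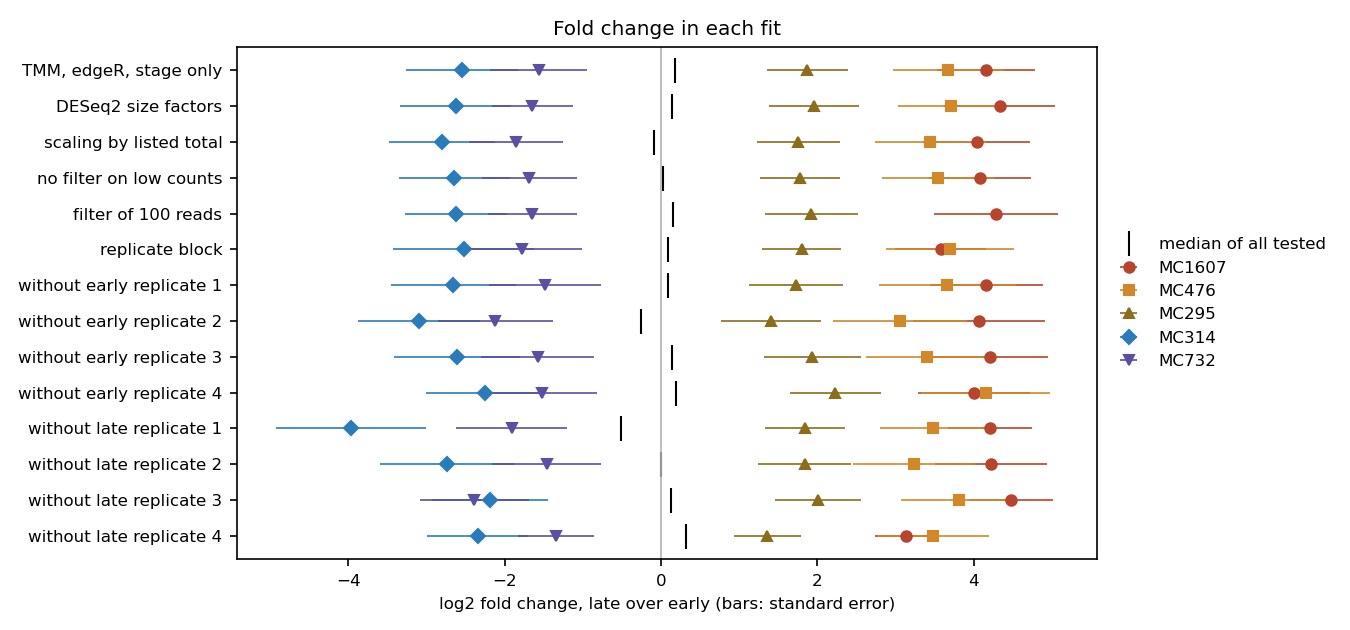
Log2 fold change of late over early larvae (x axis, bars are standard errors) in the main fit and 13 alternatives (rows), with the median of all tested sequences as a black line. No marker crosses 0, and the largest departure is MC314 at −3.97 without late replicate 1.

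The other entries without an identifier were described as a whole for comparison. They comprised 10 entries with 9 distinct sequences, of which 2 rose, MC1211 and MC1917, and 0 fell at an adjusted p under 0.05 in the edgeR fit. The remaining 7 were not called. Some of these entries lie on hairpins of named miRNAs. The precursor of MC1211 overlaps that of bte-mir-125, MC848 has the same precursor as bte-mir-3786, and the precursor of MC2238 lies within that of bte-mir-281. The log2 fold change of MC1211 was 1.96 without late replicate 1, and MC1917 was called in 5 of 13 alternatives. By direction the background was 19.4% of sequences higher and 12.9% lower in late larvae. The median log2 fold change of the 9 was 0.31 against 0.18 over all 62 tested. At an unadjusted p under 0.05 edgeR also gave 0 of the 9 lower in late larvae, and DESeq2 called 1, MC848.

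The hairpins differed in quality, a property that the choice by stage did not use. Each precursor was folded with RNAfold, which gives the structure of lowest free energy and the probability of each base pair, and was ranked among the 65 listed precursors from the weakest (1) to the strongest (65). The listed precursors had been kept for their hairpin structure, so these ranks compare accepted hairpins with each other. All 5 folded into 1 stem with 1 terminal loop, as did 62 of the 65, and in all 5 every pair of the mature sequence was to the opposite arm. The mature sequence lay on the 3p arm in MC1607, MC476 and MC295 and on the 5p arm in MC314 and MC732. The table lists only 1 arm for each of the 5, so reads from the other arm, a further sign of a processed hairpin, were not analysed here.

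MC1607 had the weakest hairpin of the list. Its minimum free energy was −17.6 kcal/mol, rank 1 of 65, against a median of −34 kcal/mol. Corrected for length it was −25.5 kcal/mol per 100 nt, rank 2, against a median of −41.9. Of its 21 mature bases 15 were paired, 6 of them in G:U pairs, and the longest unpaired run was 3 nt. In the seed 4 of 7 bases were paired. The mean pairing probability of its mature bases, 0.686, was also the lowest of the 65, where the median was 0.847. The miRNA whose rise was the firmest against counting error thus had the weakest minimum free energy of the list.

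MC732 also had a weak hairpin. Its precursor, at 61 nt the shortest of the list, had −19.9 kcal/mol, rank 2, or −32.6 kcal/mol per 100 nt, rank 4. Of its 23 mature bases 17 were paired, and their mean pairing probability was 0.731, rank 8.
MC476 had a stem of ordinary energy but a loosely paired mature sequence. Its −33.0 kcal/mol ranked 30, near the middle, whereas its mean pairing probability of 0.695 ranked 2. Of 22 mature bases 16 were paired, with an unpaired run of 3 nt. The outer part of its stem, beyond the mature sequence, was a run of 8 pairs.
MC314 had the precursor richest in GC, 64.7% against a median of 48.1%, and −30.4 kcal/mol, rank 21. For its GC content this energy was weak. The energy index, the energy per 100 nt divided by the percent GC, was 0.691 against a median of 0.879, rank 8. Of 21 mature bases 16 were paired, with no unpaired run longer than 1 nt.
MC295 had the strongest hairpin of the 5. Its 92 nt precursor had −42.5 kcal/mol, rank 56, and 19 of 22 mature bases were paired, including all 7 of the seed. The mean pairing probability was 0.863, rank 45.

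**Figure D4:**
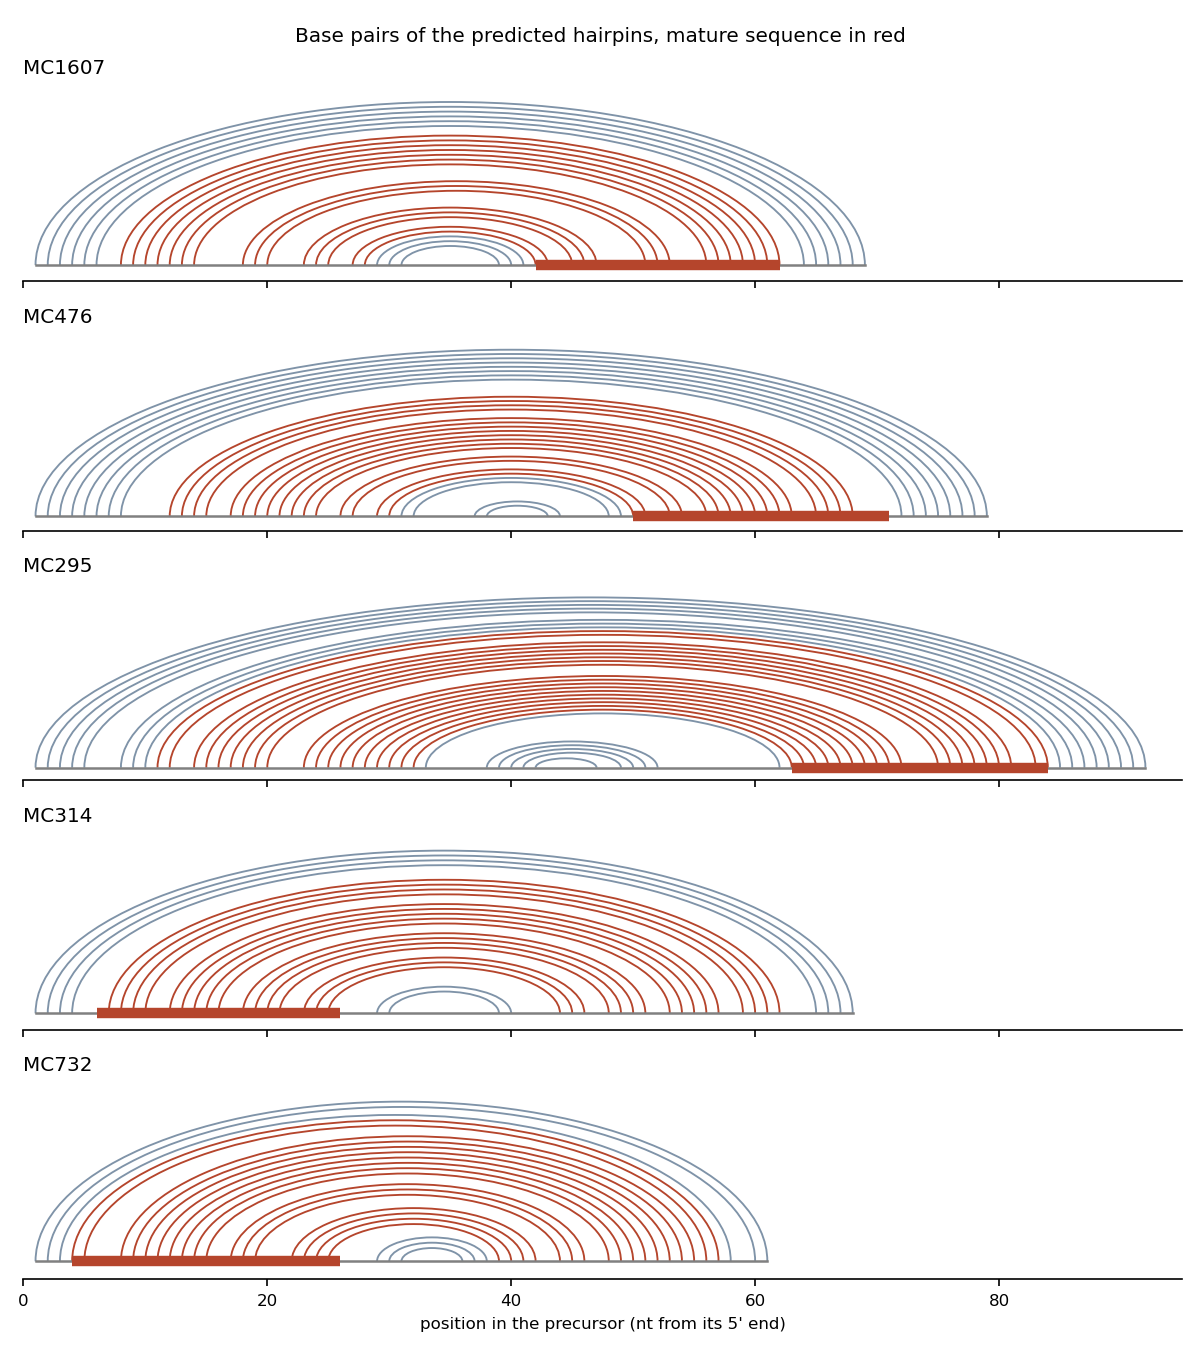
Predicted base pairs of each precursor, drawn as arcs between positions counted in nt from the 5′ end (x axis), with the mature sequence as a red bar and its pairs as red arcs. All 5 form 1 stem, and gaps between arcs over the red bar are the unpaired mature bases, 6 in MC1607, MC476 and MC732, 5 in MC314 and 3 in MC295.

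**Figure D5:**
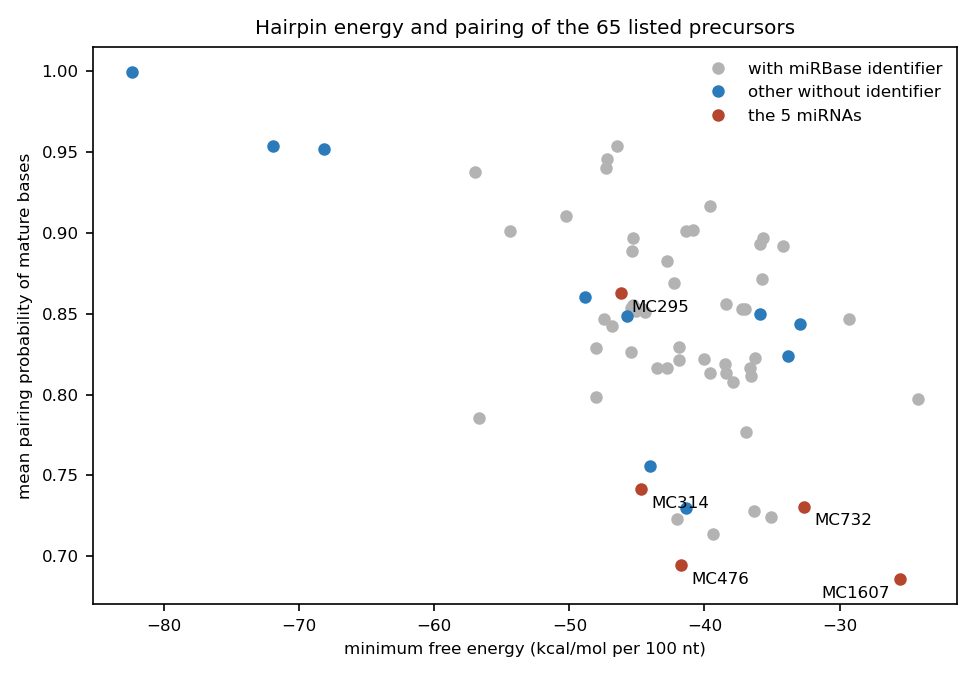
Minimum free energy per 100 nt (x axis, kcal/mol, weaker hairpins to the right) against the mean pairing probability of the mature bases (y axis) for the 65 precursors. MC1607 lies in the weak corner at −25.5 and 0.686, whereas MC295 lies among the better paired precursors at −46.2 and 0.863.

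As a group the 5 had a median pairing probability of 0.731, against 0.849 for the 10 other entries without an identifier and 0.849 for the 50 entries with one. Their median energy per 100 nt, −41.8 kcal/mol, was close to the −41.9 of the entries with an identifier and weaker than the −44.9 of the 10 others. Their median energy index, 0.691, was below the 0.895 of the entries with an identifier and the 0.876 of the 10 others. These medians over 5 chosen entries are a description. Among the 10 others, MC1211, MC848 and MC2238 share or overlap precursors of entries with an identifier, so the sets compared are not fully separate.

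The listed sequences whose levels over the 8 libraries were most like those of each miRNA were sought among sequences with at least 100 reads, by Pearson's correlation of log2(CPM + 1). The libraries fall into 2 stages and share their depth, so these correlations carry the difference between stages and are descriptions. MC1607 was most like bte-mir-6001 (r = 0.89, n = 8 libraries), which had at most 2 reads in any early library and 64 to 199 in the late ones, and then MC295 (0.84). MC295 was most like bte-mir-184 (0.90) and then MC1607 (0.84), and MC476 was most like bte-mir-184 (0.78) and then MC1607 (0.77).
MC314 was most like bte-mir-993 (0.92) and bte-bantam (0.91). MC732 was most like bte-mir-3785 (0.97) and bte-mir-996 (0.97). In both, as in MC732, late replicate 3 was above the other late libraries, but for bte-mir-996 only by little. bte-mir-3785 had 2357 CPM there against 460 to 1303 in the others. For bte-mir-996 it was 392 against 131 to 353, with 50 reads in each of late replicates 2 and 3. MC1607, MC295, MC476, bte-mir-6001 and bte-mir-184 all had their highest CPM of listed reads in late replicate 4, the shallowest library. With TMM scaling MC476 was instead highest in late replicate 2 (188 against 177 CPM in late replicate 4). On that scale bte-mir-184 was highest in late replicate 3 (362193 against 290774 CPM).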

How the data were processed

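The authors sequenced small RNA from 8 pools of worker-destined larvae, mapped all libraries together to the genome of B. terrestris and predicted precursors with miRCat. They also searched for homologs of honeybee miRNAs, and some listed entries were kept as conserved between Bombus and other species. All 5 miRNAs were miRCat entries, so the hairpin ranks compare them with precursors from both sources. They deposited raw counts per mature sequence and library, neither normalized nor pooled. The aligner, allowed mismatches and treatment of end variants are not given in the sources used here. The table names no assembly, and Bter_1.0 is the one the paper describes. Columns were matched to libraries by stage and replicate number, and 0 columns were left unmatched.

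From the deposited counts, 1 entry with blank cells was left out, and a sequence shared by 2 loci was counted once, leaving 63 sequences. Those with at least 10 reads in all (62) were fitted by stage alone with edgeR 4.0.16 (R 4.3.3) after TMM normalization. The standard error is the absolute log2 fold change over the square root of F. DESeq2 1.42.0 was an alternative. The fit was tested on simulated data. Precursors were folded with ViennaRNA 2.7.2 at 37 °C, and intervals came from SciPy 1.17.1. The interval of a ratio of summed reads conditions on their total. Other sequences were named by likeness of pattern, shared seed, position within 10 kb, or as entries without an identifier, and further singles, such as nearest neighbours on a scaffold, were chosen after their values were seen. The 5 miRNAs, lists and tests were chosen with earlier results of these data known.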

Additional observations from a re-analysis of the deposited data

How the results depend on the processing

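Every fold change of the 5 miRNAs kept its direction in each of the 13 alternative fits (12 for MC476, which the filter of 100 reads removed). With 1 library left out in turn, the log2 fold change of MC1607 ranged from 3.13 to 4.47, of MC476 from 3.06 to 4.15, of MC295 from 1.36 to 2.23, of MC314 from −3.97 to −2.19 and of MC732 from −2.39 to −1.35. The number of sequences called in all, 20, ranged from 15 to 29 over the alternatives, with 12 higher and 8 lower in the main fit, 11 and 14 with scaling by the listed total, 12 and 13 with DESeq2, and 9 and 20 without late replicate 1. The paper states 2 libraries from each colony. With larvae pooled by colony and stage, this would be an early and a late library of each colony. The stages would then be paired by colony, but the labels do not give the colony behind each replicate number. Samples with the same replicate number had correlated deviations of −0.10 to 0.05 over 4 pairs, and those with unlike numbers −0.12 to 0.12. These values cannot tell whether libraries with the same number came from the same colony. The numbers were not taken as pairs in the main fit, which did not account for colony. With the replicate block the log2 fold changes were 3.58, 3.70, 1.80, −2.52 and −1.78 for MC1607, MC476, MC295, MC314 and MC732, the number called was 18, and which of the 5 were called was the same. Folded at 25 °C, the energies were −24.58, −41.52, −52.09, −37.87 and −25.64 kcal/mol in the same order, and without dangling ends they were as at 37 °C. Ranked by energy per 100 nt in place of energy, the 5 stood at 2, 31, 50, 42 and 4 of 65, so that MC314 moved from the weaker to the stronger part of the list. The closest pattern of MC476 changed with the measure, to MC295 by Spearman's correlation and to bte-mir-2796 without late replicate 4. That of MC314 changed to bte-mir-3730 without late replicate 4, and that of MC732 to MC848 by Spearman's correlation. For MC732, bte-mir-996 was not among the 2 closest by Spearman's correlation, nor without late replicate 4. Depth limited MC476, MC314 and MC732, for which single libraries held 0 reads.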
